A study of Mus musculus with 9 samples.

Results

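The immediate early response genes described here are Fos, Fosb, Fosl1, Jun, Junb, Egr1, Egr2, Ier2, Ier3 and Klf6. Each was found by its gene symbol in the table of expression values, which gave 10 genes of 47729. All 10 were among the 17951 genes tested, whose mean over the libraries was at least 0.1 FPKM. FPKM is fragments per kilobase of transcript, scaled to the number mapped. The unit allows for transcript length and for depth, but its sum over all genes differs between libraries. The cells were mouse embryonic stem cells (ESCs) kept in LIF/serum, which carry a doxycycline (dox)-inducible construct for a forced homodimer of the bHLH transcription factor E2A, in which a FLAG-tagged mouse E47 is followed, after a flexible linker, by a repeat of E47. RNA-seq libraries were made from untreated cells (0 h) and from cells given dox at 1 µg/ml for 18 h or for 24 h, with 3 libraries at each of the 3 time points. The construct is present in all groups, untreated cells included, and it sits in 1 inducible line. Cells that lack the construct and were given dox were not analysed here, so the homodimer, dox itself and time in culture cannot be told apart. In bulk RNA, fewer cells with a transcript and less of it per cell cannot be told apart either.

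Immediate early genes are transcribed within minutes of a stimulus, without new protein synthesis, because the factors that switch them on are already in place: SRF with its ternary complex partners at CArG boxes, and CREB at cyclic AMP response elements. ERK and the other MAP kinases carry the signal from growth factors, serum and stress to these factors, and many of the transcripts are removed quickly through AU-rich elements in their 3' UTRs. In ESCs, FGF acting through ERK is a main input of this kind, and ERK activity favours exit from self-renewal. Products of the Fos and Jun families pair through leucine zippers to form AP-1, EGR proteins bind GC-rich sites through zinc fingers, and KLF6 binds GC-rich and CACCC sites.

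The libraries held 22028363 to 26471569 reads on genes. The FPKM of all genes summed to 343944 to 352872 at 0 h, 323432 to 339361 at 18 h and 318643 to 336802 at 24 h. Tcf3, which encodes E2A and on which reads of the mouse E47 construct also fall, averaged 39.1 ± 1.80 FPKM in untreated cells, 110.1 ± 5.52 FPKM after 18 h and 102 ± 7.55 FPKM after 24 h (SD, n = 3 at each time). All 7 ESC markers examined, Pou5f1, Nanog and Sox2 among them, averaged above 0.1 FPKM at each time. The libraries of replicate 1 stood apart in these markers, with summed levels of 1972, 1702 and 1656 FPKM at 0, 18 and 24 h, against a range of 1019 to 1339 FPKM in the other libraries. Of 8 fibroblast markers, Lum and Postn averaged below 0.1 FPKM at each time, and the summed level was 7.20 to 14.8 FPKM at 0 h, 6.18 to 10.4 FPKM at 18 h and 6.28 to 10.8 FPKM at 24 h, lowest in replicate 1 at each time. Limma called 1.33% of all genes tested higher at 18 h and 2.07% at 24 h. Of 7 neural markers tested, it called 2 higher at 18 h (Dll1 and Neurog3) and 4 at 24 h (these and Neurod4 and Sox1). The summed level of the 8 listed was 78.2 to 81.6 FPKM at 0 h, 113 to 119 FPKM at 18 h and 117 to 126 FPKM at 24 h, most of it from Nes and Tubb3, which were not called. Primitive endoderm markers summed to 109.7 to 148 FPKM at 0 h, 128 to 184 FPKM at 18 h and 133 to 197 FPKM at 24 h, also lowest in replicate 1 at each time. Most of this sum was Sparc, with 101.6, 139.2 and 140.4 FPKM at 0 h. Sparc and Dab2 were lowest in replicate 1 at each time, whereas Lama1 and Gata4 were highest in it at each time. The part of these differences in the results below was not tested.

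The levels of the 10 genes in untreated cells spanned a wide range. Ier2 was the most abundant at a mean of 70.9 FPKM, and Klf6 (39.0 FPKM) and Junb (22.5 FPKM) followed without overlap between neighbours. Egr1 (11.1 FPKM), Ier3 (9.90 FPKM) and Jun (7.42 FPKM) came next, with libraries that overlapped between neighbours in that order. Fos (3.41 FPKM), Fosl1 (1.51 FPKM), Fosb (0.536 FPKM) and Egr2 (0.174 FPKM) were lower, again without overlap between neighbours. With dox the top of this order stayed Ier2, Klf6 and Junb, whereas Egr1 dropped below Ier3 and Jun, Fosb dropped below Egr2, and the libraries of Fos and Fosl1 overlapped at 18 h and at 24 h.

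**Figure D1:**
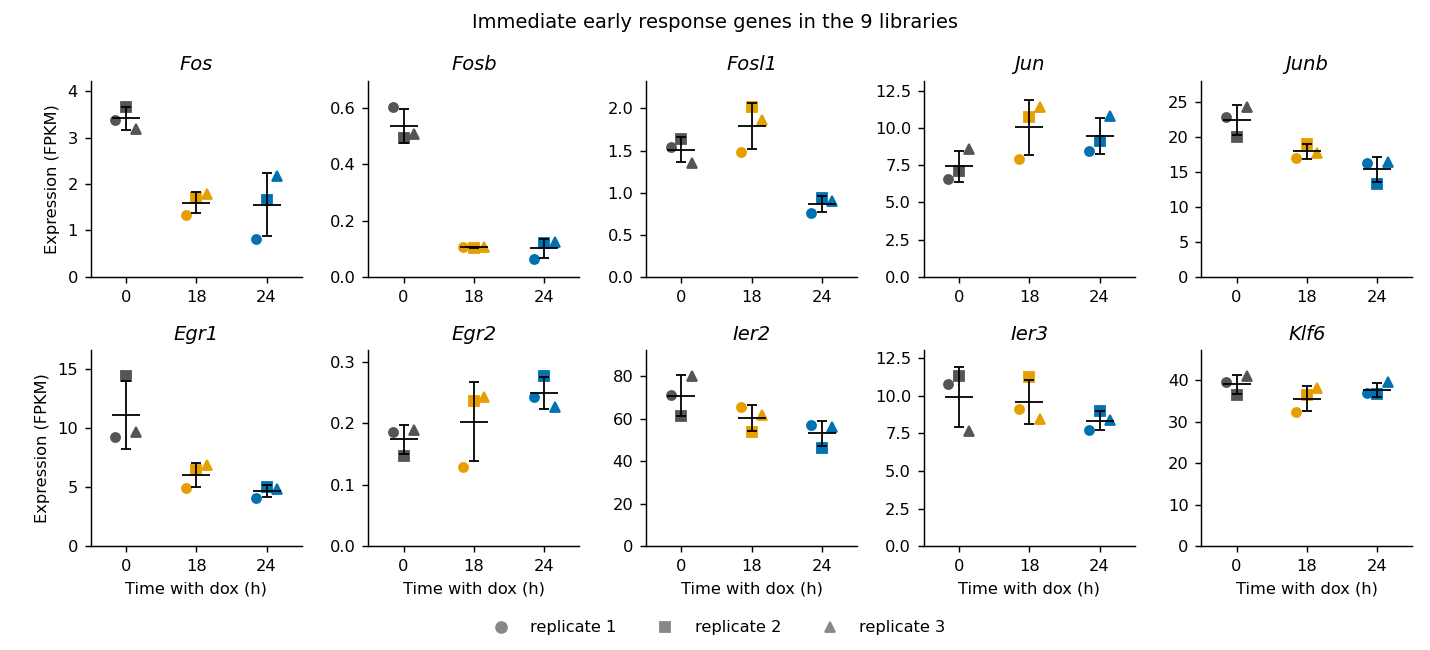
Expression in FPKM (vertical axes, linear from 0) of the 10 genes at 0, 18 and 24 h with dox, with 1 symbol per library and bars for the mean ± SD of 3 libraries. Fos, Fosb and Egr1 lie lower at both times with dox than at 0 h in all libraries, Fosl1 lies lower at 24 h only, and Klf6 and Ier3 overlap throughout.

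Fos, Fosb and Egr1 were the members called at 24 h, all lower than at 0 h, by 2.20-fold, 5.25-fold and 2.38-fold in mean FPKM. A gene was called when its limma p, adjusted by Benjamini-Hochberg over all genes tested, did not exceed 0.05 and its level changed by 1 or more, up or down, on the log2(FPKM+0.1) scale. By that rule limma called 1 of the 10 members lower at 18 h (Fosb), against 0.724% of all genes tested, and 3 of 10 lower at 24 h, against 0.836%. It called 0 members higher at either time, against 1.33% of all genes at 18 h and 2.07% at 24 h. With the unadjusted limma p under 0.05, 1 member was higher at 18 h (Jun) and 0 at 24 h, against 13.2% and 15% of all genes. By the same measure 4 members were lower at 18 h and 6 at 24 h, against 12.3% and 13.2%. On recovered reads edgeR and DESeq2 called 0 members higher at both times. The median log2 fold-change of the 10 members was -0.18 at 18 h and -0.48 at 24 h, with 7 and 8 members below 0, while the median over all genes tested was -0.0030 and 0.0040.

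By the adjusted p alone, with no minimum fold-change, 2 of 10 members were lower at 18 h (Fosb and Egr1), against 3.72% of all genes, and 5 of 10 were lower at 24 h (Fos, Fosb, Fosl1, Junb and Egr1), against 5.11%. Same-numbered libraries shared deviations over the transcriptome, and blocking on the replicate number moved these counts. With the block, 5 of 10 passed as lower at 18 h and 6 of 10 at 24 h, against 10.7% and 12.5% of all genes, and Jun passed as higher at both times, against 10.8% and 13.6%. The groups did not overlap, with all dox libraries lower, for 4 members at 18 h and for 6 at 24 h, against 13.7% and 14.6% of all genes. At 24 h all dox libraries lay above those at 0 h for 1 member, Egr2, against 16.7%.

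**Figure D2:**
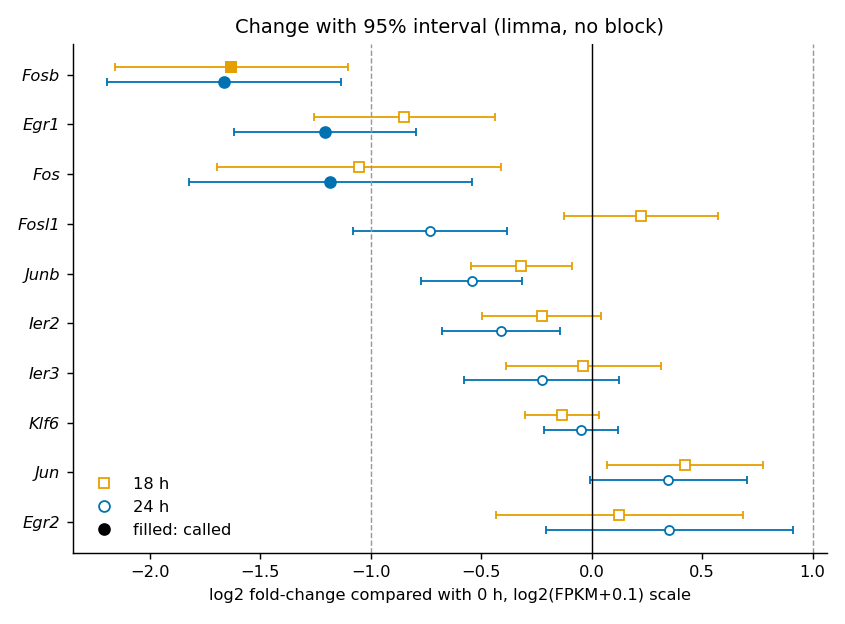
Log2 fold-change of each gene at 18 h (squares) and 24 h (circles) compared with 0 h, with the 95% interval from limma over 9 libraries on the log2(FPKM+0.1) scale. Filled symbols mark called genes, Fosb at both times and Fos and Egr1 at 24 h, and dashed lines mark log2 fold-changes of -1 and 1.

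Fos (ENSMUSG00000021250, GRCm38 chr12:85473890-85477273, plus strand, 4 exon blocks) encodes the founding member of the Fos family, which binds DNA only as a partner of a Jun protein. Its level was 3.39, 3.67 and 3.19 FPKM in the 3 libraries at 0 h, 1.34, 1.69 and 1.78 FPKM at 18 h, and 0.820, 1.67 and 2.17 FPKM at 24 h. Every dox library lay below every untreated library, and at 24 h replicate 1 was far below the other 2 libraries. The log2 fold-change was -1.05 at 18 h (SE 0.28, limma adjusted p 0.0544) and -1.18 at 24 h (SE 0.28, limma adjusted p 0.0301). Fos was therefore called at 24 h and not at 18 h, but with the replicate block it was called at 18 h as well (limma adjusted p 0.0199). The call at 24 h was lost in 10 of 22 alternatives, among them leaving out any 1 untreated library (limma adjusted p 0.0586 to 0.0858), replicate 2 of 18 h (0.0507) or replicate 2 of 24 h (0.0710). With replicate 1 of 24 h left out the value was -0.81 and fell short of the minimum fold-change. These values rest on 163 to 207 reads per library at 0 h and 49 to 139 reads at 24 h.

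Fosb (ENSMUSG00000003545, chr7:19302696-19310051, minus strand) encodes a close relative of Fos that is best known from neurons, where a truncated product accumulates with repeated stimulation. Its level was 0.604, 0.494 and 0.508 FPKM at 0 h, 0.105, 0.103 and 0.106 FPKM at 18 h, and 0.0630, 0.119 and 0.124 FPKM at 24 h. The dox libraries lay far below the untreated ones at both times and overlapped with each other. The mean was 5.12-fold lower at 18 h and 5.25-fold lower at 24 h. On the log2(FPKM+0.1) scale, which understates the change of low genes, the log2 fold-change was -1.63 (SE 0.23, limma adjusted p 0.00530) and -1.66 (SE 0.23, limma adjusted p 0.00370), and edgeR on recovered reads gave -2.35 and -2.39. The depth behind these levels was 69 to 90 reads per library at 0 h, 15 or 16 reads at 18 h and 10 to 21 reads at 24 h. With a pseudocount of 1 in place of 0.1 the change was -0.47 and -0.48 and fell short of the minimum fold-change, although the limma adjusted p was 0.0032 and 0.0022.

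The promoters of Fos and Fosb, whose levels moved together, are shown with those of Jun, which did not fall, and of Egr2. Each runs 5' to 3' from 250 bases before to 50 after a RefSeq start on GRCm38.p6: Fos chr12:85473640-85473939 (plus strand), Fosb chr7:19309996-19310295 (minus strand), Jun chr4:95052173-95052472 (minus strand) and, of 5 windows for Egr2, the third, chr10:67537619-67537918 (plus strand). Capitals mark CArG boxes, the short CRE site TGACG and the E-boxes CAGGTG and CAGCTG, the kind of site that E proteins bind, each on either strand.
Fos: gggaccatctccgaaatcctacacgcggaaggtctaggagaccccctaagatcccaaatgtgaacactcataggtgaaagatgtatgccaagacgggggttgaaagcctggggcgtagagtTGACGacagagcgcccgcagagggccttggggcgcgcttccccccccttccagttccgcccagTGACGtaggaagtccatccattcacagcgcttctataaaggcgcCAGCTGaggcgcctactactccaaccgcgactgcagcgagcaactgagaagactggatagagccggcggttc
Fosb: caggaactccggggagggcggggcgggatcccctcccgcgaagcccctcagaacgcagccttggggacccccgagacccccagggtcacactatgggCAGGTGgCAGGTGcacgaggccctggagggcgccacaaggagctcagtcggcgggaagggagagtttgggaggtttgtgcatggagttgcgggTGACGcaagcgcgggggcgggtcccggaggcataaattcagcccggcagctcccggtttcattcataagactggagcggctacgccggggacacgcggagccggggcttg
Jun: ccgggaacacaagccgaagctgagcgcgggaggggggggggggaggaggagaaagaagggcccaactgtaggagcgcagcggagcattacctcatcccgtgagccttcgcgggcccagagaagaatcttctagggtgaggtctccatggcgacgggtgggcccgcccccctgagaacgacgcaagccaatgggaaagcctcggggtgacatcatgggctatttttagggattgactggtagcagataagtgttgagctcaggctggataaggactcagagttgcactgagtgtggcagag
Egr2: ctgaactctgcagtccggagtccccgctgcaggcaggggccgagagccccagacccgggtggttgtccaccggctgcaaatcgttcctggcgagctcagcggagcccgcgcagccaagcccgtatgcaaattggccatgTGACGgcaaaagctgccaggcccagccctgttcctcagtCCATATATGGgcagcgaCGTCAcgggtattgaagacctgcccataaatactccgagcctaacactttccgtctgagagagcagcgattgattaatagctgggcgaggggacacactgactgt

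Windows were found for 7 of the 10 members, with none for Fosl1, Egr1 and Ier2. TGACG was present in the windows of Fos (at -129 and -66 from the start), Fosb (-60) and Junb (-106) and in 3 of the 5 windows of Egr2, against 20.8% of the 32851 windows of all genes. This short site is part of the full CRE site TGACGTCA, which 1.79% of all windows hold and no window of a member did. A CArG box was present in 4 of the Egr2 windows, at -72 in the one shown, against 1.63% of all windows. CAGGTG occurred in Fosb (-153 and -146), against 20.2% of all windows, and CAGCTG in Fos (-22), Junb (-16) and Ier3 (-106), against 16.3%. The EGR site GCGNGGGCG occurred in Fosb (-50), against 5.55%, and the AP-1 site TGANTCA, held by 7.81% of all windows, in no window of a member. These matches describe letters in the windows and were not set against any measure of binding.

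Fosl1 (ENSMUSG00000024912, chr19:5447547-5455946, plus strand) encodes FRA1, a Fos protein without the strong transactivation domain of FOS. It had a time course of its own, with 1.55, 1.64 and 1.35 FPKM at 0 h, 1.49, 2.02 and 1.86 FPKM at 18 h, and 0.761, 0.941 and 0.903 FPKM at 24 h. The libraries at 0 h and 18 h overlapped, and all those at 24 h lay below both. Its log2 fold-change from 0 h was 0.23 at 18 h (SE 0.15, limma adjusted p 0.404) and -0.73 at 24 h (SE 0.15, limma adjusted p 0.0189), so that the 24 h value passed the adjusted p but not the minimum fold-change. Between 18 h and 24 h the mean was 2.06-fold lower. This step was a log2 fold-change of -0.96 in limma (SE 0.15, adjusted p 0.192) and was not called. On recovered reads it was called by DESeq2 (-1.05, adjusted p 0.0270) and by edgeR with the replicate block (-1.05, adjusted p 0.00765), but not by edgeR without it (-1.05, adjusted p 0.227). Fosl1 overlaps Ccdc85b on the opposite strand, and how strand was used in the counting is not given in the sources used here. Ccdc85b changed by -0.24 (log2) from 0 h to 24 h (limma adjusted p 0.225).

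In the comparison of 24 h with 18 h limma called 0 of the 10 members in either direction, against 0.00557% of all genes lower and 0.0167% higher. On recovered reads edgeR called 0 members, and DESeq2 and edgeR with the replicate block each called 1 lower (Fosl1). Of all genes tested, no setting called more than 5 lower between these times. All libraries at 24 h lay below all those at 18 h for 2 members, Fosl1 and Junb, against 6.04% of all genes. The median log2 fold-change of the members between these times was -0.16, and 8 of 10 were below 0.

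Jun (ENSMUSG00000052684, chr4:95049034-95052222, minus strand, 1 exon) encodes c-Jun, the partner of Fos proteins that JNK phosphorylates and that acts on its own promoter. Its level was 6.56, 7.12 and 8.58 FPKM at 0 h, 7.91, 10.8 and 11.4 FPKM at 18 h, and 8.44, 9.12 and 10.8 FPKM at 24 h. The groups overlapped at both times, and in each pair of libraries with the same replicate number the dox library was the higher. The log2 fold-change was 0.42 at 18 h (SE 0.16, limma adjusted p 0.133) and 0.35 at 24 h (SE 0.16, limma adjusted p 0.184), and with the replicate block the adjusted p was 0.00831 and 0.0135. Both values stayed below the minimum fold-change. Junos, antisense to Jun, averaged 0.174, 0.154 and 0.117 FPKM at 0, 18 and 24 h.

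Junb (ENSMUSG00000052837, chr8:84974484-84978718, minus strand) encodes a Jun protein that is a weaker activator than c-Jun and can oppose it. Its level was 22.9, 20.04 and 24.4 FPKM at 0 h, 17.0, 19.1 and 17.8 FPKM at 18 h, and 16.4, 13.4 and 16.5 FPKM at 24 h. No dox library reached the lowest untreated one, and the libraries at 24 h all lay below those at 18 h. Limma gave a log2 fold-change of -0.32 at 18 h (SE 0.10, limma adjusted p 0.0894, with the replicate block 0.0461) and -0.54 at 24 h (SE 0.10, limma adjusted p 0.0118), short of the minimum fold-change. Prdx2, which overlaps Junb on the opposite strand, was at 122, 113 and 114 FPKM on average at 0, 18 and 24 h, a change of -0.10 (log2) by 24 h (limma adjusted p 0.182).

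The make-up of the AP-1 transcripts differed between the times. Fos made up 47.8 ± 0.353% of the summed FPKM of the Fos family at 0 h, 26.3 ± 1.83% at 18 h and 28.9 ± 7.31% at 24 h (SD, n = 3). Fosl2, the family member outside the 10 genes, which encodes FRA2, went the other way, from 23.5 ± 0.952% to 42.7 ± 2.06% and 52.0 ± 5.17%. Its own level was 1.60, 1.82 and 1.61 FPKM at 0 h, 2.17, 3.10 and 2.57 FPKM at 18 h, and 2.24, 2.81 and 2.90 FPKM at 24 h. Neither dox group overlapped with 0 h, while the 18 h and 24 h groups overlapped. The log2 fold-change of 0.60 at 18 h and 0.63 at 24 h passed the limma adjusted p (0.0446 and 0.0316) but not the minimum fold-change. Fosb went from 7.53 ± 0.997% of the family to 1.74 ± 0.291% and 1.93 ± 0.277%. Fosl1 made up 21.1 ± 0.766% before dox, 29.3 ± 0.204% after 18 h and 17.1 ± 2.39% after 24 h. The family's summed level was 6.65 to 7.62 FPKM at 0 h, 5.10 to 6.91 FPKM at 18 h and 3.88 to 6.10 FPKM at 24 h, so that the groups at 0 h and 24 h did not overlap.

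In the Jun family, Jund, which encodes the subunit least dependent on stimulation, was the most abundant at each time and held 50.9 ± 2.13%, 45.8 ± 4.05% and 51.1 ± 2.81% of the summed FPKM at 0, 18 and 24 h. The share of Jun was 12.2 ± 1.52% at 0 h, 19.4 ± 3.25% at 18 h and 18.7 ± 2.52% at 24 h, and that of Junb was 36.9 ± 1.09%, 34.8 ± 1.504% and 30.2 ± 1.53%. The Jun family had 52.8 to 68.1 FPKM in sum at 0 h, 50.2 to 52.2 FPKM at 18 h and 43.1 to 57.9 FPKM at 24 h. On this scale Jun family transcripts were several times as abundant as those of the Fos family in all libraries.

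**Figure D3:**
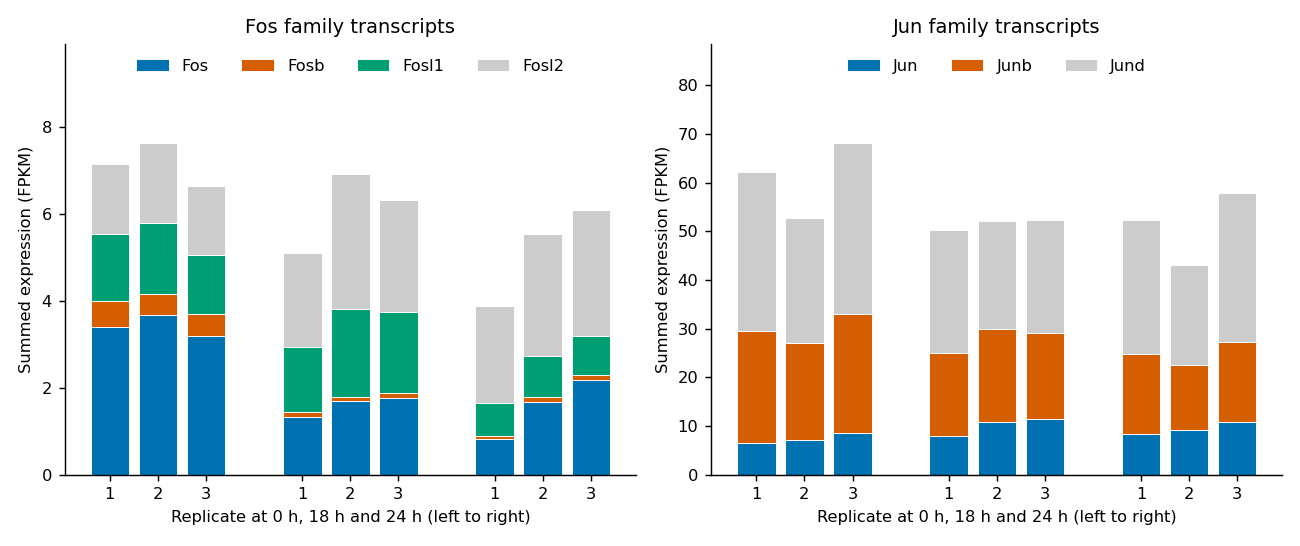
Summed expression in FPKM (vertical axes) of Fos family (left) and Jun family (right) transcripts, with 1 bar per library in the order replicate 1, 2, 3 within 0, 18 and 24 h. The Fos part of the left bars shrinks from a mean of 3.41 FPKM at 0 h to 1.60 FPKM at 18 h and 1.55 FPKM at 24 h while the grey Fosl2 part grows, and Jund is the largest part of the Jun family means.

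Egr1 (ENSMUSG00000038418, chr18:34859823-34864984, plus strand, 2 exon blocks) encodes a zinc-finger activator that is a sensitive readout of ERK signalling. Its level was 9.28, 14.4 and 9.69 FPKM at 0 h, 4.93, 6.44 and 6.86 FPKM at 18 h, and 4.11, 5.05 and 4.90 FPKM at 24 h. All dox libraries lay below the untreated ones, and replicate 2 was the highest at 0 h. The mean was 1.83-fold lower at 18 h and 2.38-fold lower at 24 h. Limma gave a log2 fold-change of -0.85 at 18 h (SE 0.18, limma adjusted p 0.0250), short of the minimum fold-change, and -1.21 at 24 h (SE 0.18, limma adjusted p 0.00513). The call at 24 h held in all 22 alternatives run, with values of -1.32 to -1.01. Between 18 h and 24 h the log2 fold-change was -0.36 (95% interval -0.77 to 0.05), and the libraries overlapped.

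Egr2 (ENSMUSG00000037868, chr10:67535475-67542188, plus strand) encodes KROX20, which patterns the hindbrain and is needed for myelination. It was the lowest member at 0 h, with 0.185, 0.147 and 0.189 FPKM at 0 h, 0.129, 0.236 and 0.243 FPKM at 18 h, and 0.243, 0.277 and 0.227 FPKM at 24 h. All libraries at 24 h lay above those at 0 h, on 21 to 24 reads against 12 to 15, but the log2 fold-change of 0.35 had a 95% interval of -0.21 to 0.91 (limma adjusted p 0.391). The interval includes 0 and the difference did not pass the test. Of the other EGR and NAB genes, limma called 0 of 4 tested (Egr3, Egr4, Nab1 and Nab2) at 18 h and at 24 h, 1 of them was higher at an unadjusted p under 0.05 at each time (13.2% of all genes after 18 h and 15% after 24 h), and edgeR and DESeq2 called 0. Nab2, which encodes a corepressor of EGR proteins that EGR1 itself induces, was at 3.38, 4.45 and 4.32 FPKM at 0 h and 4.99, 7.06 and 7.13 FPKM at 24 h, with no overlap (log2 fold-change 0.64, limma adjusted p 0.0709).

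Ier2 (ENSMUSG00000053560, chr8:84661331-84662852, minus strand, 1 exon) encodes a small nuclear protein. Its level was 71.3, 61.2 and 80.1 FPKM at 0 h, 65.5, 53.8 and 62.0 FPKM at 18 h, and 57.1, 46.4 and 56.1 FPKM at 24 h. The libraries at 24 h all lay below those at 0 h, and replicate 2 was the lowest at each time. The log2 fold-change was -0.23 at 18 h (SE 0.12, limma adjusted p 0.272) and -0.41 at 24 h (SE 0.12, limma adjusted p 0.0553), and with the replicate block the adjusted p was 0.0221 and 0.00230.

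Ier3 (ENSMUSG00000003541, chr17:35821684-35822923, plus strand), whose product IEX-1 modulates apoptosis, and Klf6 (ENSMUSG00000000078, chr13:5861482-5870394, plus strand), which encodes a Krüppel-like factor, did not pass at either time. Ier3 had 10.8, 11.3 and 7.64 FPKM at 0 h, 9.09, 11.2 and 8.44 FPKM at 18 h, and 7.69, 8.97 and 8.38 FPKM at 24 h. Its groups overlapped at both times, with log2 fold-changes of -0.04 (95% interval -0.39 to 0.31) and -0.23 (-0.58 to 0.13). Klf6 had 39.5, 36.5 and 41.0 FPKM at 0 h, 32.3, 36.4 and 38.01 FPKM at 18 h, and 36.8, 36.7 and 39.6 FPKM at 24 h. The log2 fold-change of Klf6 was -0.13 at 18 h (95% interval -0.30 to 0.03) and -0.05 at 24 h (-0.22 to 0.12), so that a change by the minimum fold-change lay outside the interval at both times. The same held for Ier3.

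The 3' UTRs of the members differed in AU-rich elements. The ATTTA pentamer occurred at least once in the 3' UTRs of 9 of 10 members, beside 68.8% of those of 13851 genes. It was found 7 times in Klf6, 5 times in Ier3, 4 times each in Fos and Jun, 3 times in Egr2, 2 times each in Junb and Egr1, once each in Fosb and Fosl1, and not in Ier2. Per 1000 bases of 3' UTR the order was another, with 8.16 in Ier3, 4.91 in Fos, 4.12 in Junb and 3.24 in Jun. Egr2 (2.5) and Klf6 (2.25) came next, and Klf6 has the longest 3' UTR of the members (3111 bases). The nonamer TTATTTATT, found in 8.13% of these UTRs, occurred in that of Fos and in no other member. The site in Fos is shown with 8 bases on either side and the nonamer in capitals.
Fos 3' UTR site: ttttcaatTTATTTATTaagatgga

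The spread between replicate cultures was measured as the residual SD on the log2(FPKM+0.1) scale, with 6 degrees of freedom, and set beside genes whose mean lay within 0.5 log2 of the member's. Fos had a residual SD of 0.41, at the 87.2 percentile of genes of its level. Egr1 (0.26, percentile 90.05), Jun (0.22, percentile 87.8), Ier3 (0.22, percentile 87.8) and Ier2 (0.17, percentile 86.9) were also spread more widely than most genes of their level. Junb (0.14, percentile 74.4) and Klf6 (0.09, percentile 49.6) were nearer the middle, and Fosl1 (0.17, percentile 27.6), Egr2 (0.21, percentile 9.88) and Fosb (0.17, percentile 4.30) lay below it. In all, 6 of the 10 members exceeded the median of genes of a similar level, and the median over all genes tested was 0.18. For Fos the coefficient of variation of FPKM was 7.06% at 0 h, 14.4% at 18 h and 44.0% at 24 h, and for Egr1 it was 25.7%, 16.7% and 10.8%. On recovered reads edgeR gave a biological coefficient of variation, set here beside its trend over genes of similar abundance. It was above the trend for Fos (21.6% against 16.5%), Egr1 (14.5%, 10.2%), Jun (12.8%, 10.6%) and Ier2 (9.97%, 8.60%). Ier3 lay at the trend (14.05%, 14.01%). Below it were Junb (9.39%, 10.03%), Klf6 (7.42%, 8.43%), Fosb (15.3%, 20.6%), Fosl1 (13.8%, 19.2%) and Egr2 (15.2%, 23.3%).

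**Figure D4:**
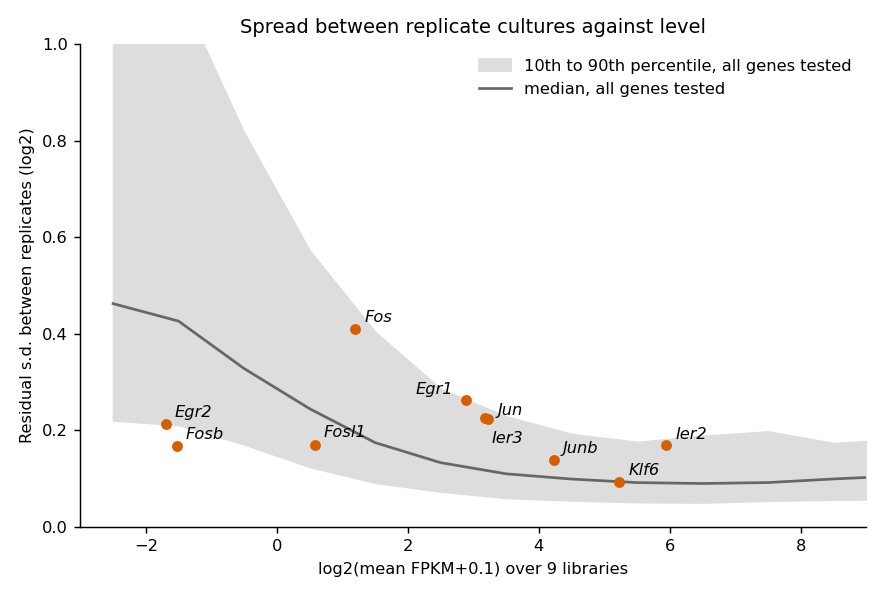
Residual SD between replicate libraries (vertical axis, log2 scale) against the log2 of the mean FPKM plus 0.1 over 9 libraries (horizontal axis), with the median (line) and the 10th to 90th percentile (band) of all genes tested and 1 point per member. Fos, Egr1, Jun, Ier3 and Ier2 lie near the upper edge of the band, and Fosb and Egr2 lie at or below its lower edge.

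Averaged over the 10 genes, the deviation from the mean of the time point was -0.16 (log2) in replicate 1 at 18 h and -0.15 in replicate 1 at 24 h, against 0.0058 in replicate 1 at 0 h. Replicate 1 was the lowest of the 3 libraries for 7 of 10 members at 18 h and for 6 of 10 at 24 h, but for 2 of 10 at 0 h. Among all genes tested it was the lowest, with no tie, for 36.1% at 18 h, 33.6% at 24 h and 33.8% at 0 h. Replicate 1 was also the replicate with the highest summed ESC markers and the lowest summed fibroblast and primitive endoderm markers at each time. The primitive endoderm sum was mostly Sparc, and Lama1 and Gata4 of that list were highest in replicate 1 at each time. The part of these differences in the members' levels was not tested. The members not lowest in replicate 1 at 18 h were Fosb and Ier2, lowest in replicate 2, and Ier3, lowest in replicate 3. Those at 24 h were Junb, Ier2 and Klf6, lowest in replicate 2, and Egr2, lowest in replicate 3.

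**Figure D5:**
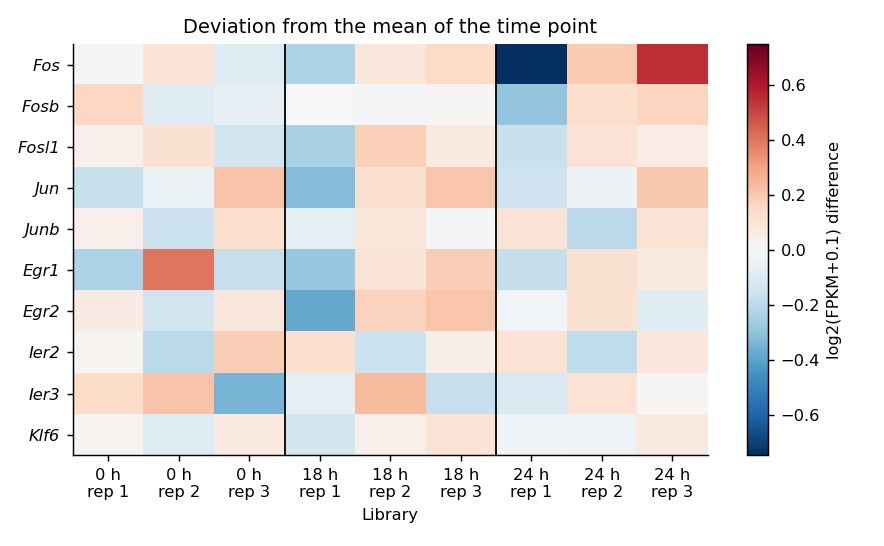
Deviation of each library from the mean of its time point (colour, log2(FPKM+0.1) difference) for the 10 genes (rows) in the 9 libraries (columns, grouped by time). The replicate 1 libraries at 18 h and 24 h are blue for most genes, with Fos at 24 h the strongest at -0.75.

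The gene outside the lists whose profile over the 9 libraries was most like the mean centred profile of the members, of 11885 genes with a mean of at least 1 FPKM, was Jmjd1c (Pearson r 0.982), which averaged 21.6, 18.2 and 16.9 FPKM at 0, 18 and 24 h. Snord100 (0.978), Gins2 (0.970), Epha2 (0.962) and AF357399 (0.958) followed. Snord100 and AF357399 are short RNAs that a library of polyadenylated RNA measures poorly. Over deviations from the means of the time points the order was Timp3 (0.9905), Plec (0.9903), Trim44 (0.982), Zfp386 (0.979) and Tsc22d2 (0.978). These are the highest values of many over only 9 libraries that share depth and replicate effects, and they are a description.

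Other genes with immediate early kinetics did not share 1 direction. Of 30 listed, 29 were tested. Limma called 1 of them, Btg2, higher at each time, against 1.33% of all genes at 18 h and 2.07% at 24 h. It called 0 lower, against 0.724% and 0.836%. Btg2, an antiproliferative p53 target, had 16.6, 16.5 and 25.6 FPKM at 0 h, 37.8, 36.1 and 41.6 FPKM at 18 h, and 36.3, 38.3 and 44.1 FPKM at 24 h. Its log2 fold-change of 1.00 at 18 h (limma adjusted p 0.00797) lay at the minimum fold-change, and edgeR gave 0.98. By the limma adjusted p alone, Gadd45b (0.72 at both times) and Plk3 (0.78 and 0.75), both stress-response genes, were also higher at both times. With Btg2 that made 3 of 29, against 4.27% of all genes at 18 h and 6.52% at 24 h. Lower by the same test at both times were Pim1 (-0.94 and -0.71), a kinase gene induced by LIF and STAT3, Myc (-0.41 and -0.65), Nr4a1 (-0.30 and -0.45), Klf10 (-0.37 and -0.41) and Zfp36 (-0.38 and -0.38), whose product binds AU-rich elements. Of the 29, 5 were thus lower at each time, against 3.72% of all genes at 18 h and 5.11% at 24 h. The median log2 fold-change of the list was 0.05 at 18 h and -0.04 at 24 h.

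Among the 9 other AP-1 subunits listed, 7 were tested. Limma called 1 of them, Jdp2, lower at 18 h, against 0.724% of all genes. Jdp2 encodes a repressor that dimerises with Jun proteins. Jdp2 had 4.73, 2.24 and 7.68 FPKM at 0 h, 1.05, 1.39 and 1.93 FPKM at 18 h, and 1.57, 1.83 and 1.58 FPKM at 24 h. The untreated libraries were spread over a wide range but none overlapped with dox. The log2 fold-change was -1.55 at 18 h (limma adjusted p 0.0400) and -1.34 at 24 h (limma adjusted p 0.0520), and with the replicate block Jdp2 was called at 24 h as well (adjusted p 0.0278). Atf3, a stress-induced partner of Jun, had 7.61, 4.58 and 11.04 FPKM at 0 h and 3.05, 4.68 and 4.89 FPKM at 24 h, with overlap (log2 fold-change -0.81, limma adjusted p 0.138). Limma called 1 of 10 KLF relatives, Klf11, lower at 18 h (log2 fold-change -1.03, adjusted p 0.00234), against 0.724% of all genes. By the limma adjusted p alone, Klf3, Klf5, Klf10 and Klf11 were lower at both times, 4 of the 10. Of all genes, 3.72% were lower by this measure at 18 h and 5.11% at 24 h.

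The machinery upstream of these genes was examined in 6 lists: SRF and its cofactors, the CREB family, dual-specificity phosphatases, ERK kinases, JNK and p38 kinases, and decay factors of AU-rich transcripts. Of their 52 genes tested, limma called 0 at 18 h and 0 at 24 h, as did edgeR and DESeq2 on recovered reads. At an unadjusted p under 0.05, 8 were higher and 11 lower at 18 h, and 8 were higher and 10 lower at 24 h. Of all genes tested, 13.2% were higher and 12.3% lower by this measure after 18 h, and 15% were higher and 13.2% lower after 24 h. By the limma adjusted p alone, and among other genes of the lists, Dusp4, an ERK-induced phosphatase of MAP kinases, was lower at both times (-0.52 and -0.77), with 29.04, 31.2 and 32.4 FPKM at 0 h and 17.2, 18.9 and 18.05 FPKM at 24 h. Dusp1 was lower at 24 h (-0.41). Mkl2, an actin-regulated cofactor of SRF, and Zfp36l2, a decay factor, were higher at both times, by 0.39 and 0.33 and by 0.72 and 0.75. Srf itself averaged 20.9 ± 2.18 FPKM in untreated cells, 24.1 ± 0.397 FPKM after 18 h and 22.8 ± 0.431 FPKM after 24 h (SD, n = 3), with a log2 fold-change of 0.21 at 18 h (limma adjusted p 0.109).

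Of 14 cytoskeletal targets of SRF and its actin-regulated cofactors, 3 were higher by the limma adjusted p alone at each time (Acta1, Cnn1 and Myl9). Of all genes, 4.27% were higher by this measure at 18 h and 6.52% at 24 h. It gave 0 targets lower, against 3.72% and 5.11% of all genes. At an unadjusted p under 0.05, 7 targets were higher at 18 h and 6 at 24 h, against 13.2% and 15% of all genes. By that measure 0 targets were lower at either time, against 12.3% and 13.2%. Limma called 1 of them, Acta1, skeletal muscle actin, higher at 18 h, with 6.38, 8.43 and 5.62 FPKM at 0 h and 11.5, 14.6 and 15.8 FPKM at 18 h (log2 fold-change 1.03, adjusted p 0.0218), and with the replicate block 2 were called. Heat shock genes, which are examined as a sign of handling stress, gave 0 calls of 10 tested in limma, edgeR and DESeq2 at either time. At an unadjusted p under 0.05, 2 of them were higher at 18 h (13.2% of all genes), and 5 were higher and 2 lower at 24 h (15% and 13.2% of all genes). Among these, Dnajb1 was higher by the limma adjusted p alone (0.48 and 0.45).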

How the data were processed

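Polyadenylated RNA libraries (TruSeq Stranded mRNA) were sequenced by the authors on a HiSeq4000, trimmed with cutadapt 1.9 and aligned with STAR to GRCm38 (Ensembl). The authors deposited FPKM values for 47729 genes (19906 of them at 0 everywhere) and a table of 19210 genes that holds a per-library signal, scaled CPM. That table also carries the authors' own edgeR 3.16.5 comparisons as log2 fold-change, p-value and false discovery rate, which were not used. How strand and multiply mapped reads were counted, and the Ensembl release, are not given in the sources used here. Time points came from the sample titles and treatment entries. The treatment protocol text names other times.

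Reads were recovered from the deposited signal by dividing by what 1 read was worth in each library. 100% of the values came out whole within 0.01. The unit decided the tests: limma 3.58.1 (lmFit, eBayes with trend) in R 4.3.3 on log2(FPKM+0.1), all 9 libraries, no block, and edgeR 4.0.16 and DESeq2 1.42.0 on recovered reads as alternatives. Adjusted p values are Benjamini-Hochberg over all genes tested. Scripts were tested on simulated data. Replicates with the same number are paired in the block because their deviations from the time point means correlated in all 9 pairs (r 0.211 to 0.548 over 11893 genes, against -0.399 to 0.110 for 18 pairs of different numbers). No pair of replicates agreed within sampling noise, and p-values measure the spread between these cultures of 1 line. Loci and 3' UTRs come from GENCODE M21 on GRCm38, and promoters from RefSeq (GRCm38.p6). Named genes are the 10 members, listed genes that were called in any comparison or passed the adjusted p alone, relatives of the members, and the 5 genes most like their profile by each measure. The members and lists were chosen with earlier results of these data known.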

Additional observations from a re-analysis of the deposited data

How the results depend on the processing

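Fosb was called lower at both times, and Egr1 at 24 h, by limma, edgeR and DESeq2. Fosb lost its call only with a pseudocount of 1, and it was not tested with a minimum of 1 FPKM. The number of members called lower at 18 h, 1 in the fit reported, was 0 with a pseudocount of 1 and 2 (Fosb with Fos or, with no minimum fold-change, Egr1) with quantile normalization, with only the time points compared, with the replicate block, with no minimum fold-change, with edgeR, with edgeR and the replicate block, and with DESeq2. Leaving out single libraries kept it at 1 or moved it to 2 (without replicate 1 or 3 of 24 h). With a minimum of 1 FPKM it was also 1, but the member called was Fos (log2 fold-change -1.05, limma adjusted p 0.0418). At 24 h the number was 1 with a pseudocount of 1, 5 with no minimum fold-change and otherwise 2 or 3. Between 18 h and 24 h it was 1 (Fosl1) with DESeq2 and with edgeR and the replicate block. The replicate block changed no other call of a member. Fos at 24 h lost its call in 10 of 22 alternatives, with limma adjusted p up to 0.0858 and log2 fold-changes of -1.46 to -0.81, and the cause was not tested. Small changes turned sign: Klf6 at 24 h (0.024 with quantile normalization), Ier3 at 18 h (-0.21 to 0.068 over the fits without 1 library) and, between 18 h and 24 h over the same fits, Fos (-0.41 to 0.24), Fosb (-0.11 to 0.11) and Jun (-0.24 to 0.027). For all genes tested, limma called 239 higher and 130 lower at 18 h and 371 and 150 at 24 h. These numbers were 66, 54, 84 and 67 with a pseudocount of 1, 125, 85, 166 and 99 with a minimum of 1 FPKM, 766, 667, 1171 and 917 with no minimum fold-change, 383, 200, 539 and 241 with edgeR, and 505, 311, 678 and 340 with edgeR and the replicate block. The block in limma gave 199 lower at 18 h, and only the time points compared gave 75. Leaving out 1 library gave 65 or 66 lower at 18 h (replicate 1 of 0 h, replicate 2 or 3 of 18 h), 158 higher at 18 h (replicate 3 of 18 h), 240 higher at 24 h (replicate 3 of 24 h), and 79, 82 and 92 lower at 24 h (replicate 1 of 0 h, replicates 2 and 3 of 24 h). Between 18 h and 24 h no setting called more than 7 genes in 1 direction. Median centring was added after the data had been seen and changed no call of a member. Depth limits Fosb at 18 h and 24 h and Egr2 at each time, with at most 24 reads per library.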
